A study of Mus musculus with 12 samples.

Results

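The 48 genes described here are cell cycle and DNA replication genes of the mouse, taken from the table of gene counts by their GENCODE symbols and roles. The rule used no measured value, though the genes were proposed with earlier results of these data known. Each symbol matched 1 of the 55414 rows of the table, and all 48 passed the filter on low counts that left 13057 genes to be tested. They were divided by role into a G2/M list of 23 genes, which act when the cell prepares for and passes through mitosis, and a G1/S and S list of 25 genes, which act at the start of replication and during it. In all 12 libraries every member was counted, with between 49 and 11471 reads per library.

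Cells that divide copy their DNA in S phase and separate the copies in M phase, and most of the genes needed for each step are transcribed in a wave just before it. Factors of the E2F family drive the G1/S wave, and a later wave that reaches its peak in G2 uses promoters with a cell cycle homology region (CHR) and CCAAT boxes. In the small intestine division takes place in the crypt, in stem cells and in the transit-amplifying cells above them, whereas Paneth cells are differentiated secretory cells at the crypt base that no longer divide.

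The libraries come from crypts of the small intestine of C57BL/6J mice, aged 8 to 12 weeks, from which cells were sorted as Paneth cells or as non-Paneth cells. The mice were wild type (WT) or carried a deletion of the glucocorticoid receptor (GR, gene Nr3c1) in the intestinal epithelium, under the name GRvillinKO, after the villin promoter that drives deletion in epithelial cells of all types. The 4 groups, WT non-Paneth, GRKO non-Paneth, WT Paneth and GRKO Paneth cells, hold 3 libraries each, and the labels name no treatment in any of them. Paneth cells were taken as CD24+ cKIT+ cells of medium to high side scatter without CD31, CD45 and TER119. How the non-Paneth cells were gated was not found in the labels or the methods, and which crypt cells they include can be read only from their transcripts. Nothing in the labels says that the replicates of a group came from different mice, and p-values measure the spread between these samples.

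The genotype was read from the sample titles, since the genotype field gives all 6 Paneth libraries as WT and all 6 non-Paneth libraries as GRKO. Nr3c1 itself followed the titles. It was at 110.4 to 131 normalised CPM (counts scaled to library size and composition) in the WT and at 13.1 to 24.5 in the GRKO libraries of non-Paneth cells, and in Paneth cells at 40.8 to 54.1 and 5.82 to 15.4. Library totals lay between 11126297 and 15910292 counts. The Paneth markers Lyz1, Defa24, Defa30, Mmp7, Itln1, Ang4, Mptx2 and Nupr1 together made 432526 to 673167 normalised CPM in the Paneth libraries and 363 to 1130 in the non-Paneth libraries. Both WT libraries of replicate 2 carried Xist, at 126.5 and 257 CPM, against at most 0.521 CPM in the other 10, so that the mice were not all of 1 sex.

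The promoters of the members were searched for E2F, CHR and CCAAT letters, the elements named above for the waves. RefSeq promoter windows of build GRCm38.p6, of 300 bases from 250 before to 50 after the annotated start, were matched for 41 of the 48 members, with the first window listed for each gene. Ccna2, Aurkb, Kif20a, Tpx2, Mcm4, Gins2 and Ccne2 had no match. The E2F letters were TTGGCGC in the first form searched, TTCCCGC in another, TTCGCGC in the next and TTGCCGC in the last. For the CHR the forms were TTTGAA and the other form TTCGAA, and for the CCAAT box the letters of its name. All were searched on both strands, and E2F and CCAAT matches could overlap. Windows are printed for a pair of genes from each list, 5′ to 3′ in the direction of transcription, with all matches in capitals. Ccnb1 and Plk1, a mitotic cyclin and a mitotic kinase, are from the G2/M list, and Cdc6 and Mcm2, which license replication origins, are from the G1/S and S list. The windows are chr13:100786437-100786736 on the minus strand for Ccnb1, chr7:122159185-122159484 on the plus strand for Plk1, chr11:98907901-98908200 on the plus strand for Cdc6 and chr6:88898731-88899030 on the minus strand for Mcm2.
Ccnb1: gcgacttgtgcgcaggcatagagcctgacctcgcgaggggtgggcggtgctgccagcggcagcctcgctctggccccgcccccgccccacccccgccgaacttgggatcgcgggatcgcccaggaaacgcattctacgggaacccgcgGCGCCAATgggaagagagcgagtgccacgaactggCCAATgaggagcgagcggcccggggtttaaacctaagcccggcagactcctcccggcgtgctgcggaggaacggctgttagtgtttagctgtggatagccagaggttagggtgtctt
Plk1: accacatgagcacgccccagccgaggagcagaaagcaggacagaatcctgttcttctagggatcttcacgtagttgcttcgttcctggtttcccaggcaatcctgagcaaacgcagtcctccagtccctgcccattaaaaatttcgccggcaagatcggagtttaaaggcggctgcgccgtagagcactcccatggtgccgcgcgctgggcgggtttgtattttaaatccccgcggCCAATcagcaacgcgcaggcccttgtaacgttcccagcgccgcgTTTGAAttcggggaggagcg
Cdc6: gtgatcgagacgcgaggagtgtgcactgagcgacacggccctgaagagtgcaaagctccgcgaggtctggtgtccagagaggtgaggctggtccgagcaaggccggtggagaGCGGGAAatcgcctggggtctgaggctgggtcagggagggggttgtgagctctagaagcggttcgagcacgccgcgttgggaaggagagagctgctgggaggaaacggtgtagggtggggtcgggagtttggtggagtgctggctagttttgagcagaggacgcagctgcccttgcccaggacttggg
Mcm2: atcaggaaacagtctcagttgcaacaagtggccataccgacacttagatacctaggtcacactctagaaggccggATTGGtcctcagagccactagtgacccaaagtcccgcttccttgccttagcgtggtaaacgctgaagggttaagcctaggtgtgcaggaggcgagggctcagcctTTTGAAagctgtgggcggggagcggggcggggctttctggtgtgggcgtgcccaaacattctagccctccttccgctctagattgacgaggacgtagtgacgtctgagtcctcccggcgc

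In the Ccnb1 window the first capital run is an E2F match (GCGCCAA) that shares bases with a CCAAT box, and the second is a CCAAT box alone. The Plk1 window has a CCAAT box before the start and TTTGAA after it. Cdc6 has an E2F match, and Mcm2 has a CCAAT box on the other strand and TTTGAA. CHR letters were present in 15 of the 19 matched members of the G2/M list (78.9%) and in 6 of 22 of the G1/S and S list (27.3%), against 19.4% of all 27025 promoters and 14.1% of the promoters of 9924 genes tested. CCAAT was present in 17 of 19 (89.5%) and 13 of 22 (59.1%), against 37.9% and 39.1%. E2F letters were present in 3 of 19 (15.8%) and 13 of 22 (59.1%), against 9.69% and 17.2%. These shares are descriptions, and a match in a window is not a site of binding. In the 150 bases nearest to the start, 73.7% of the G2/M windows and 13.6% of the G1/S and S windows held CHR letters. Of all promoters 8.68% did, and of those of genes tested 5.48%. E2F letters were in 5.26% and 40.9% of the windows of the lists, against 5.69% of all promoters and 10.1% of those of genes tested.

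Per kilobase of exon, the most abundant members over the 12 libraries were Pcna, the sliding clamp of the replication fork, at 52.6 normalised CPM per kb, Cdc20, which activates the anaphase-promoting complex, at 35.4, and Top2a, the topoisomerase that untangles chromosomes, at 35.3. The length counts all annotated exons of a gene, 2.40 kb for Pcna and 10.6 kb for Chek1, and the order depends on it. The lowest members were the checkpoint kinase gene Chek1 at 1.39, Cdkn3 at 1.44 and Ccne2 at 1.70 normalised CPM per kb. The members thus span a range of more than an order of magnitude, and they are found in both fractions. Added up, they made 0.328 to 0.381% of all counts in the WT and 0.687 to 0.721% in the GRKO libraries of non-Paneth cells, and 0.188 to 0.263% and 0.185 to 0.243% in those of Paneth cells. GRKO non-Paneth cells stood above all other libraries on every scale used.

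**Figure D1:**
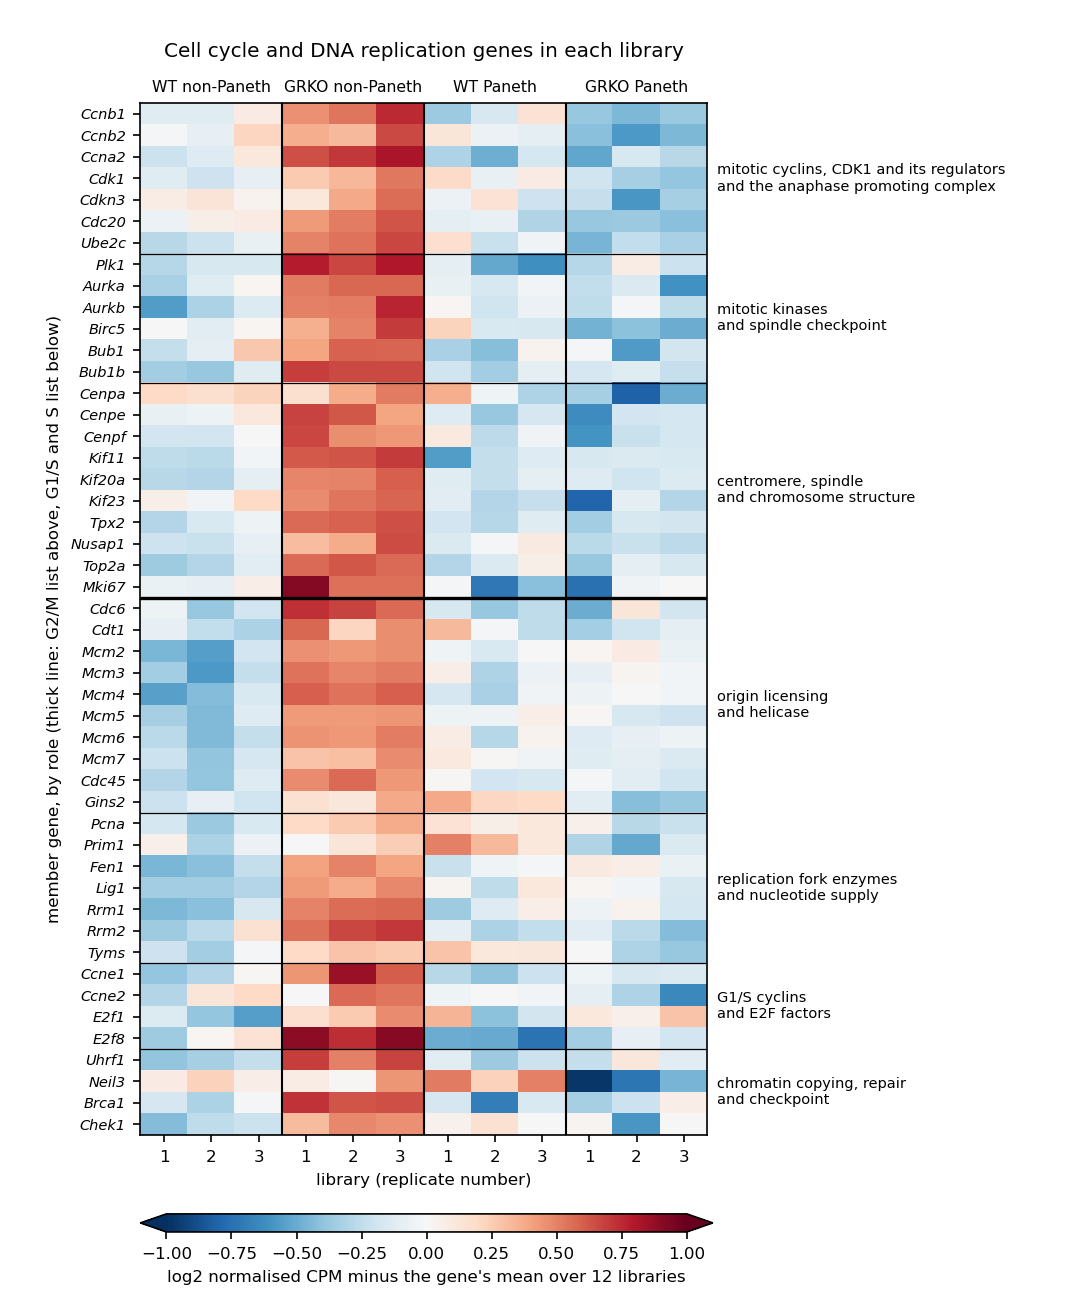
The 48 members (rows, by role) in the 12 libraries (columns), as log2 normalised CPM minus the mean of the gene over all libraries, from blue (below the mean) to red (above). The 3 GRKO non-Paneth libraries are red in nearly all rows, and in the Paneth libraries and the WT non-Paneth libraries most rows lie near or below the mean.

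In non-Paneth cells, the comparison of GRKO with WT asks what loss of GR goes with in the remainder of the crypt, and here the members rose nearly as a body. Of the 48 members, 43 passed a false discovery rate of 5% and all 43 were higher in GRKO cells, where 17.5% of the 13057 genes tested were called higher and 19.8% lower. Log2 fold changes of the 43 lay between 0.39 and 0.95, that is 1.31-fold to 1.94-fold. The median over the 48 members was 0.72 on the log2 scale, and 0.02 over all genes tested. No member was lower at an unadjusted p under 0.05 in edgeR, which 46.5% of all genes tested passed in either direction. DESeq2 called 42 higher and 0 lower. All 48 estimates were above 0, and in each of the 43 every GRKO library lay above every WT library, which held for 27.8% of all genes tested. The 5 members not called were Cdkn3, Cenpa, Prim1, Ccne2 and Neil3, with estimates from 0.06 to 0.36.

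Of the 7 mitotic cyclins and regulators of CDK1 and the anaphase-promoting complex, 6 rose. Ccna2, the A-type cyclin of S phase and G2, was at 95.3, 101 and 118 normalised CPM in the 3 WT libraries and at 172, 179.8 and 194 in the 3 GRKO libraries. It rose by 0.80 ± 0.13 on the log2 scale (SE, adjusted p = 0.000301). Ccnb1, the cyclin that with CDK1 starts mitosis, was at 32.4, 32.3 and 37.2 against 48.2, 50.9 and 58.9. These ranges do not meet, and the rise was 0.63 ± 0.13 (adjusted p = 0.00193). Cdc20 went from 64.2, 69.7 and 70.8 to 89.9, 95.3 and 104 (log2 fold change 0.50 ± 0.11, adjusted p = 0.00221). Ube2c, the ubiquitin-conjugating enzyme of the anaphase-promoting complex, was at 67.0, 70.1 and 77.1 in WT and at 115, 119 and 129.6 in GRKO cells, with a rise of 0.76 ± 0.12 (adjusted p = 0.000272). Cdkn3, a phosphatase that acts on CDKs, was not called, at 0.28 ± 0.16 (adjusted p = 0.177).

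All 6 genes for mitotic kinases and the spindle checkpoint rose, with a median log2 fold change of 0.81. Plk1, the Polo-like kinase needed for entry into and passage through mitosis, was at 46.3, 50.5 and 50.4 normalised CPM in WT and at 97.1, 89.6 and 98.4 in GRKO non-Paneth cells, and its log2 fold change of 0.95 ± 0.14 was the highest of the members (adjusted p = 0.000135). Bub1b, which holds back anaphase until chromosomes are attached, was at 47.4, 46.5 and 55.8 against 97.8, 95.6 and 95.7 (0.95 ± 0.11, adjusted p = 2.89e-05). Aurkb, the kinase of the chromosomal passenger complex, was at 32.6, 38.8 and 43.8 against 68.4, 68.7 and 81.7 (0.92 ± 0.13, adjusted p = 0.00011). In each of these genes the lowest GRKO library was above the highest WT library. Aurka, Birc5 and Bub1 rose by 0.69, 0.55 and 0.53.

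Of the 10 genes for centromeres, the spindle and chromosome structure, 9 rose and Cenpa, the centromeric histone, did not pass the test (0.16 ± 0.16, adjusted p = 0.445). Top2a was at 244, 254 and 289 normalised CPM in WT and at 461, 481 and 462 in GRKO cells, a rise of 0.83 ± 0.13 (adjusted p = 0.000183). Mki67, which encodes the proliferation marker Ki-67, was at 224, 221 and 245 in WT cells. In GRKO cells it was at 443, 344 and 343, with 1 library well above the other 2, and the rise was 0.71 ± 0.20 (adjusted p = 0.0119). The Mki67 call was lost without GRKO non-Paneth replicate 1 (0.53, adjusted p = 0.0844), without WT non-Paneth replicate 1 (0.64, adjusted p = 0.0615) and without WT non-Paneth replicate 2 (0.64, adjusted p = 0.0631).

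The 10 genes for origin licensing and the replicative helicase all rose. Mcm6, a subunit of the MCM helicase, was at 137, 122 and 140.1 normalised CPM in WT and at 227, 223 and 237 in GRKO non-Paneth cells, with a log2 fold change of 0.78 ± 0.12 (adjusted p = 0.000161). The subunits Mcm2, Mcm3, Mcm4, Mcm5 and Mcm7 rose by 0.84, 0.90, 0.94, 0.73 and 0.61, and Cdc6 and Cdt1, which load the helicase, by 0.86 and 0.64. Gins2, part of the complex that activates the helicase, changed least among the 10, from 17.7, 19.5 and 17.95 to 22.9, 22.3 and 26.8 (0.39 ± 0.13, adjusted p = 0.0289). Of the 7 genes for fork enzymes and nucleotide supply, 6 rose. Pcna was at 111, 96.6 and 112 in WT and at 143, 149 and 161 in GRKO cells (0.51 ± 0.12, adjusted p = 0.00331). Tyms, the thymidylate synthase, was at 50.2, 45.4 and 57.2 against 66.3, 70.5 and 69.4 (0.43 ± 0.12, adjusted p = 0.0132). Prim1, the catalytic subunit of primase, was at 38.4, 29.8 and 35.6 in WT cells and at 37.0, 40.3 and 43.9 in GRKO cells, groups that overlap (0.22 ± 0.14, adjusted p = 0.224).

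Among the 4 G1/S cyclins and E2F factors, E2f8, a repressing E2F, was at 30.0, 38.9 and 42.4 normalised CPM in WT and at 71.5, 64.0 and 72.2 in GRKO non-Paneth cells (0.90 ± 0.13, adjusted p = 0.000168). E2f1 and Ccne1 rose by 0.65 and 0.86, and Ccne2 was not called (0.36 ± 0.19, adjusted p = 0.155). Of the 4 genes for chromatin copying, repair and checkpoint, 3 rose. Uhrf1, which carries DNA methylation over to the new strand, was at 70.3, 73.5 and 78.7 against 149, 131 and 148 (0.95 ± 0.12, adjusted p = 5.32e-05). Brca1 and Chek1 rose by 0.82 and 0.72. Neil3, a DNA glycosylase, stood apart, with 12.3, 13.6 and 12.2 in WT and 12.2, 11.69 and 15.8 in GRKO cells (0.06 ± 0.16, adjusted p = 0.802).

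The size of the rise in GRKO non-Paneth cells depends on the scale, while its direction does not. The summed level of the members was 1.65 times that of WT in normalised CPM and 2.01 times in CPM of library totals. In counts per kilobase of exon, rescaled to the same total in each library, it was 2.31 times. With library totals alone, 46 members were called higher and none lower, where 33.3% of all genes were called higher and the median of all genes was 0.31 in place of 0.02. Other transcripts moved in the same libraries. The summed enterocyte markers (Alpi, Sis, Apoa1, Apoa4, Fabp1, Fabp2 and Vil1) were at 22290 to 24665 normalised CPM in WT and 4497 to 5586 in GRKO non-Paneth cells, and 3 of 7 passed the test as lower. The stem cell markers (Lgr5, Olfm4, Ascl2, Smoc2, Rgmb and Axin2) were at 3537 to 4758 and 4563 to 5891, and 4 of 6 were called higher. Tuft cell markers were at 3.12 to 8.77 and 62.8 to 246. In bulk samples, a change in the share of dividing cells and a change in RNA per cell cannot be told apart, and the part of these other cells in the result was not tested. Without both WT libraries of replicate 2, 38 members were called higher.

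**Figure D2:**
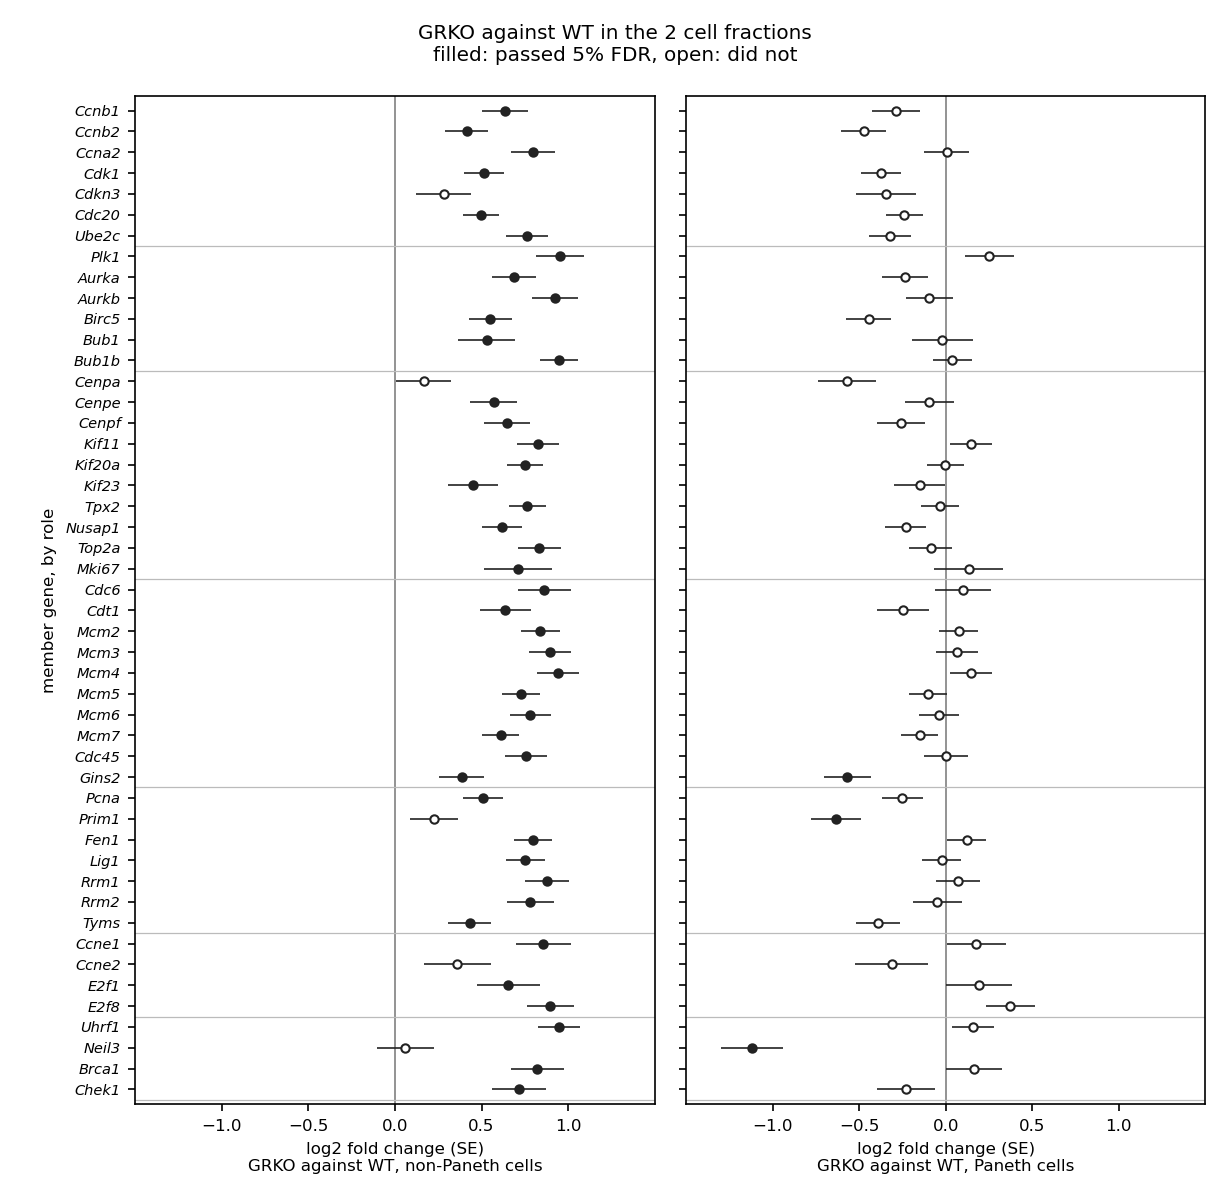
Log2 fold change of GRKO against WT for each member (rows, by role), in non-Paneth cells on the left and Paneth cells on the right, where bars are the SE and filled points passed 5% FDR. In non-Paneth cells all 48 points are above 0 and 43 are filled, and in Paneth cells points scatter around 0 and only Gins2, Prim1 and Neil3 are filled.

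In Paneth cells few members were called between GRKO and WT. Of the 48 members, none was called higher and 3 were called lower, where 1.7% of all genes tested were called higher and 1.52% lower. The median log2 fold change of the members was -0.09, and at an unadjusted p under 0.05 edgeR had 1 member higher and 11 lower, or 25% of the members, against 26.7% of all genes tested in either direction, while DESeq2 called 0 higher. The G2/M list had 18 of 23 estimates below 0 and no call, with a median of -0.15. For 16 of the 48 members every GRKO library lay below every WT library, against 10.2% of all genes tested. For 2 members every GRKO library lay above, against 14.2% of all genes. In the summed level, GRKO Paneth cells stood at 0.945 times WT Paneth cells in normalised CPM and 0.951 times in CPM of library totals.

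The 3 members called lower in GRKO Paneth cells all belong to the G1/S and S list. Neil3 was at 16.6, 13.6 and 16.4 normalised CPM in WT Paneth and at 5.92, 7.05 and 8.42 in GRKO Paneth cells, and fell by 1.12 ± 0.18 on the log2 scale (adjusted p = 0.0331). Prim1 was at 52.6, 46.4 and 39.9 against 30.1, 26.1 and 33.5 (-0.63 ± 0.14, adjusted p = 0.0448). Gins2 was at 26.8, 23.9 and 23.7 against 19.1, 15.3 and 15.9 (-0.57 ± 0.14, adjusted p = 0.0448). In each of them the WT libraries all lay above the GRKO libraries. That separation was not particular to the called members, since it held for 16 members in all and for 10.2% of all genes tested. The reverse held for 2 members and 14.2% of all genes. The 3 calls were sensitive to the choice of fit and of libraries. DESeq2 called 8 members lower, library totals alone or a fit of the 6 Paneth libraries alone called 0, and without GRKO Paneth replicate 2 or WT Paneth replicate 1 the count was 0, without WT Paneth replicate 2 or GRKO Paneth replicate 3 it was 1, and without GRKO Paneth replicate 1 it was 7. Without both WT libraries of replicate 2 it was 0. The count of all genes called lower moved in the same way, from 198 to 639 with DESeq2, 2 by library totals, 0 in the fit of the Paneth libraries alone, 0 without GRKO Paneth replicate 2 and 690 without GRKO Paneth replicate 1. Over the alternatives the log2 fold change of Neil3 lay between -1.25 and -1.01, with an adjusted p from 1.23e-05 to 0.216, that of Prim1 between -0.73 and -0.53 (0.00365 to 0.224) and that of Gins2 between -0.66 and -0.50 (0.00621 to 0.224).

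Members of high level were not called between the genotypes of Paneth cells. Mki67 was at 231, 143 and 176 normalised CPM in WT and at 140.1, 229 and 234 in GRKO Paneth cells, groups that overlap widely (0.13 ± 0.20, adjusted p = 0.699). Top2a was at 255, 283 and 325 against 239.6, 293 and 279.5 (-0.09 ± 0.13, adjusted p = 0.687). Mcm6 was at 174, 136 and 169.7 against 151, 156 and 159.8 (-0.04 ± 0.12, adjusted p = 0.86). Plk1, the gene with the highest fold change in non-Paneth cells, was at 52.98, 39.5 and 36.8 in WT and 46.3, 59.2 and 48.6 in GRKO Paneth cells, which overlap (0.25 ± 0.14, adjusted p = 0.267). A p above the threshold does not show that the groups are equal, and the SE of the 48 members in this comparison was 0.11 to 0.21 on the log2 scale.

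Tested as a difference between the fractions, the genotype effect was lower in Paneth than in non-Paneth cells for 39 of 48 members and higher for none, against 7.28% of all genes called lower and 11.5% called higher. All 48 estimates were below 0, with a median of -0.79 on the log2 scale against -0.01 over all genes, and 46 members (95.8%) had an unadjusted p under 0.05, against 33.3% of all genes in either direction. DESeq2 called 41 lower and 0 higher. Neil3 had the lowest estimate at -1.18 ± 0.24 (adjusted p = 0.00466), followed by Ube2c at -1.08 ± 0.17 (adjusted p = 0.0011) and Aurkb at -1.02 ± 0.19 (adjusted p = 0.00249). Neil3 was called between genotypes in Paneth cells and not in non-Paneth cells, and Ube2c and Aurkb the other way round. All 10 origin and helicase genes and all 7 genes of the fork were called, and of the 4 G1/S cyclins and E2F factors none was. Mki67 was not called (-0.58 ± 0.28, adjusted p = 0.166). Plk1 was called at -0.70 ± 0.20 (adjusted p = 0.024), and its call was lost without GRKO Paneth replicate 3, GRKO non-Paneth replicate 3 or WT non-Paneth replicate 1 (adjusted p = 0.0528, 0.0568 and 0.0562). With library totals alone 46 members were called lower, where 14.1% of all genes were. In the same test 6 of 6 stem cell markers and 3 of 4 tuft cell markers were called lower and 1 of 7 enterocyte markers higher, and their part in the result was not tested.

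**Figure D3:**
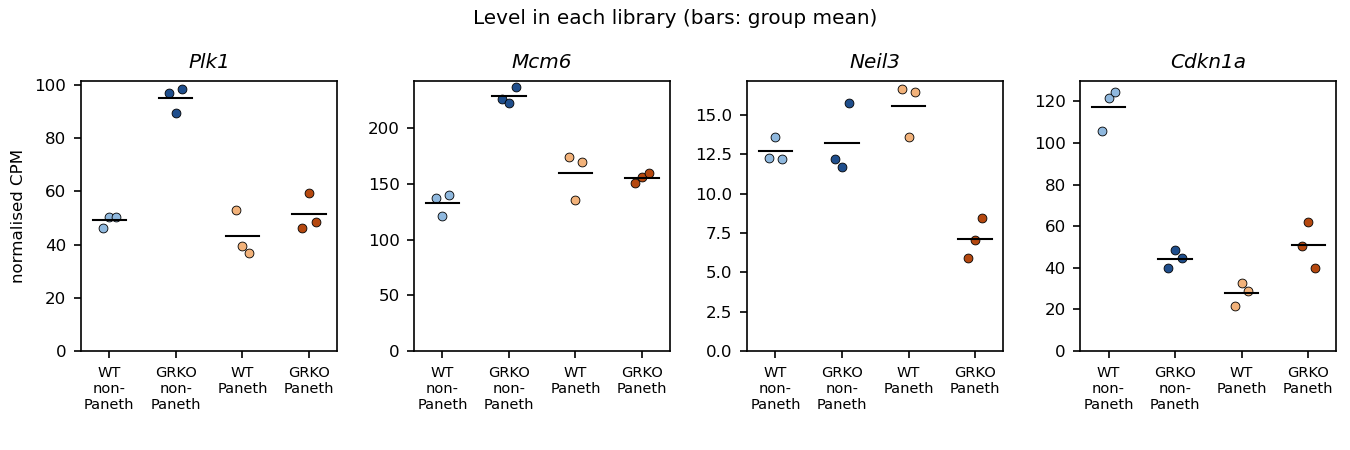
Normalised CPM of Plk1, Mcm6, Neil3 and Cdkn1a in each library by group, with bars for the mean of 3. Plk1 and Mcm6 are highest in GRKO non-Paneth cells, Neil3 is lowest in GRKO Paneth cells, and Cdkn1a is highest in WT non-Paneth cells.

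Within WT mice, Paneth cells were compared with the non-Paneth cells of the crypt. In this comparison the scaling decides the direction. With composition scaled out, 9 members were called higher in Paneth cells and 1 lower, where 24% of all genes were called higher and 26.7% lower, and the median of the members was 0.08 on the log2 scale. With library totals alone, 0 were higher and 41 lower, where 60.4% of all genes were called lower and their median moved from 0.01 to -0.68. The 8 Paneth markers alone stood at 357072 to 436826 CPM of library totals in the WT Paneth libraries, and at 442 to 1352 in WT non-Paneth cells. The share of higher among all calls moved from 47.3% to 12.2%. The summed members in WT Paneth cells were 1.06 times those of WT non-Paneth cells in normalised CPM and 0.658 times in CPM of library totals. In counts per kilobase of exon, rescaled to the same total in each library, they were 0.195 times. That last scale is not the normalised CPM per kb given for single members. With composition scaled out, members were called less often than all genes in either direction. By library totals they were called lower more often than all genes.

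The 9 members called higher were Mcm2, Mcm5, Mcm7, Gins2, Pcna, Prim1, Fen1, Lig1 and Tyms, all of the G1/S and S list. Their log2 fold changes lay between 0.28 and 0.43, with no overlap between the groups. Every WT Paneth library lay above every WT non-Paneth library for 12 members in all, and for 27.6% of all genes tested. The reverse held for 4 members and 29.9% of all genes. None of the 23 members of the G2/M list was called by edgeR. None had an unadjusted p under 0.05, against 56.5% of all genes tested in either direction. Their median was -0.05 against 0.28 for the G1/S and S list. By library totals all 23 were called lower, and without WT Paneth replicate 1 Mki67 (-0.53, adjusted p = 0.0388) and Plk1 (-0.37, adjusted p = 0.0265) were. Gins2 was at 17.7, 19.5 and 17.95 normalised CPM in WT non-Paneth and at 26.8, 23.9 and 23.7 in WT Paneth cells (0.43 ± 0.13, adjusted p = 0.0132). Prim1 was at 38.4, 29.8 and 35.6 against 52.6, 46.4 and 39.9 (0.42 ± 0.14, adjusted p = 0.0214). Tyms was at 50.2, 45.4 and 57.2 against 70.3, 62.2 and 62.6 (0.35 ± 0.13, adjusted p = 0.0289). In all of these the lowest Paneth library lay above the highest non-Paneth library. Pcna, at 111, 96.6 and 112 against 138, 130.2 and 134, also rose (0.33 ± 0.12, adjusted p = 0.0256), and Mcm6 missed the threshold (0.27 ± 0.12, adjusted p = 0.0681). E2f8 fell, from 30.0, 38.9 and 42.4 to 27.2, 27.1 and 23.1 (-0.53 ± 0.14, adjusted p = 0.00525), and it is the member whose call goes against the others.

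The values given above for the WT fractions are from a fit that does not pair them. With the replicate number as a block, which pairs the fractions, 5 members were called higher and 1 lower. In a fit of the 6 WT libraries alone 3 were higher, and with no filter on low counts 0 were. Without WT Paneth replicate 1, 4 were higher and 3 lower, without WT Paneth replicate 3, 3 were higher, and without WT non-Paneth replicate 3, 14 were higher and 0 lower. Without WT non-Paneth replicate 2 none was lower, and without both WT libraries of replicate 2 the count of higher members was 2. The stem cell markers were at 7706 to 8327 normalised CPM in WT Paneth and 3537 to 4758 in WT non-Paneth cells, and all 6 were called higher. The enterocyte markers were at 574.3 to 2110.3 against 22290 to 24665, with all 7 called lower. Tuft cell markers were at 159 to 435 against 3.12 to 8.77, with 4 of 4 called higher. Immune markers summed to at most 16.6 normalised CPM. Of these 5 genes only 2 passed the filter on low counts, and 1 of the 2 was called higher. Endothelial and red cell markers, of which none was tested, summed to at most 0.445 normalised CPM in either group. What part these transcripts have in the level of the members was not tested.

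In GRKO mice the same comparison gave another picture, with 47 of 48 members lower in Paneth than in non-Paneth cells and none higher. This held by edgeR, where 21.2% of all genes were called lower and 18% higher, and by DESeq2. It also held at an unadjusted p under 0.05 in edgeR, which 47.3% of all genes passed in either direction. The median of the members was -0.77 on the log2 scale, against -0.08 over all genes. With library totals alone all 48 were lower, where 76.3% of all genes were, and the direction of the members held on both scales. The G2/M list had a median of -0.87 and the G1/S and S list of -0.58. The lowest were E2f8 (-1.05 ± 0.14, adjusted p = 2.4e-05), Ccna2 (-1.03 ± 0.13, adjusted p = 1.8e-05) and Ccnb1 (-0.99 ± 0.14, adjusted p = 4.43e-05). Ccna2 was at 172, 179.8 and 194 normalised CPM in GRKO non-Paneth and at 77.0, 98.8 and 91.3 in GRKO Paneth cells, and no library of the former came near one of the latter. E2f1, the activating E2F, was the member not called, at 15.5, 16.6 and 19.2 against 14.9, 14.4 and 16.8, which overlap (-0.15 ± 0.18, adjusted p = 0.541). This comparison and that of the genotypes in non-Paneth cells share the 3 GRKO non-Paneth libraries, and they are not independent. Markers of other cells moved with it. Enterocyte markers were at 4497 to 5586 normalised CPM in GRKO non-Paneth and 737.1 to 995.8 in GRKO Paneth cells, with 6 of 7 called lower, and enteroendocrine markers at 286.7 to 415.6 and 71.4 to 93.6, with 3 of 4 lower. Tuft cell markers were at 62.8 to 246 and 404 to 1075, with 4 of 4 higher, and 3 of 6 stem cell markers were called higher. Their part in the result was not tested.

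**Figure D4:**
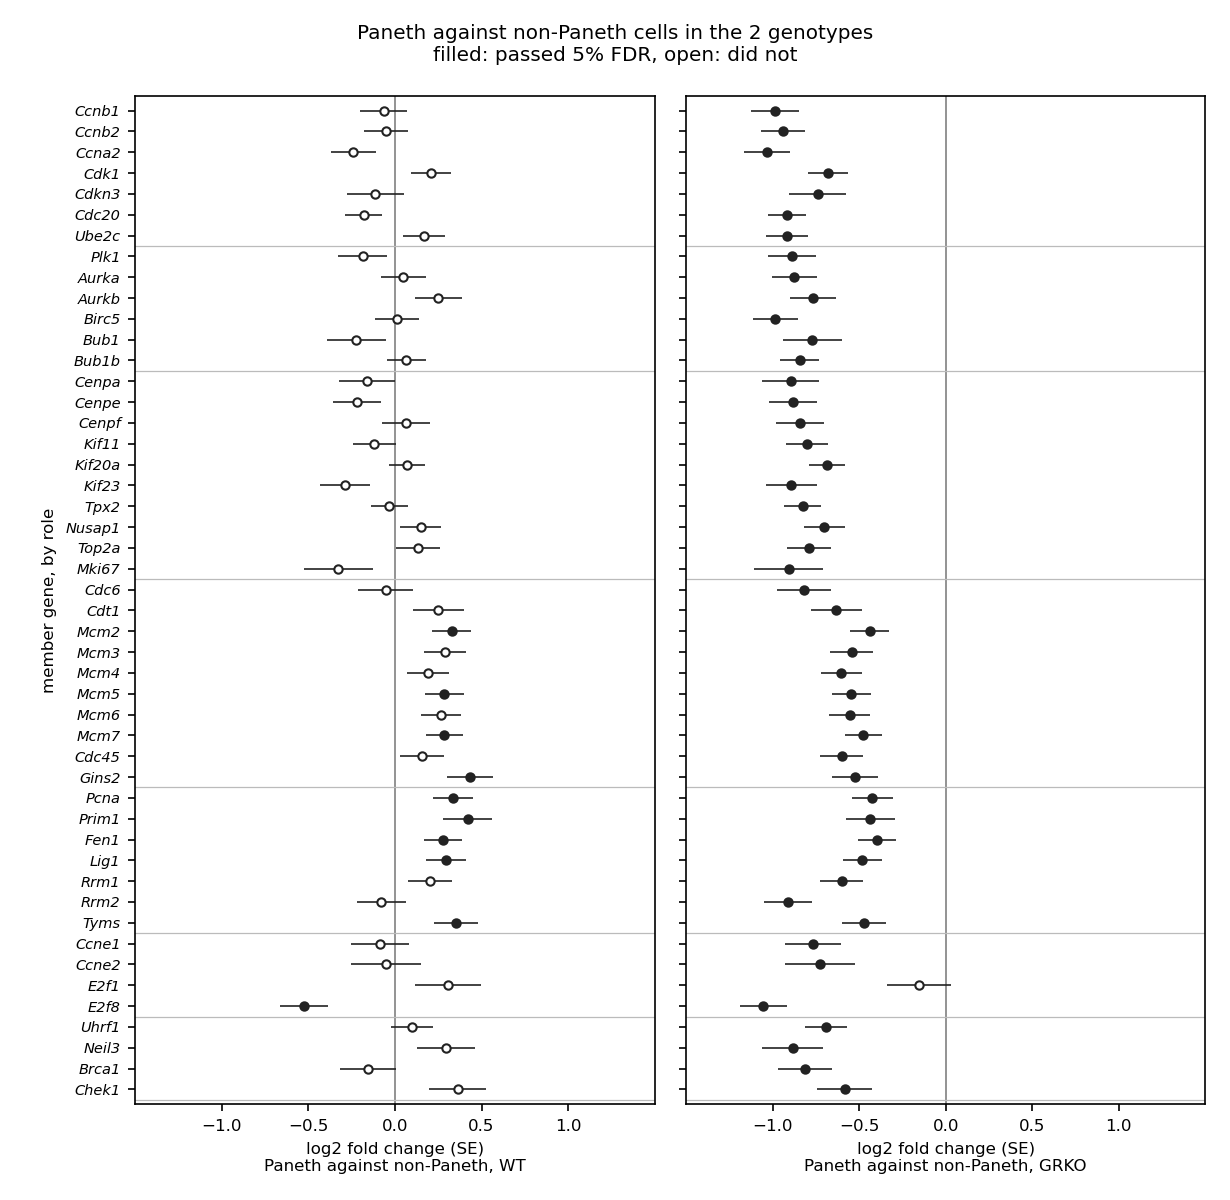
Log2 fold change of Paneth against non-Paneth cells for each member (rows, by role), in WT mice on the left and GRKO mice on the right, where bars are the SE and filled points passed 5% FDR. In WT mice points lie around 0 with 9 filled above it and E2f8 below, and in GRKO mice all 48 are below 0 and 47 are filled.

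The ratio of the lists within a library does not depend on the scaling between libraries. The summed CPM of the G1/S and S list over that of the G2/M list was 0.86, 0.804 and 0.832 in WT non-Paneth cells, and 0.849, 0.858 and 0.859 where GR was deleted. In Paneth cells it was 1.003, 1.02 and 1.002 for WT and 1.16, 0.998 and 0.99 for GRKO. All 6 Paneth libraries lay above all 6 non-Paneth libraries, while the genotypes overlap in each fraction. The same held per kilobase of exon, at 0.83 to 0.903 in the non-Paneth and 1.04 to 1.19 in the Paneth libraries. Without Mki67 and Top2a, the most counted members of the G2/M list, the ratio was 1.17 to 1.25 in WT and 1.24 to 1.32 in GRKO non-Paneth cells, and 1.44 to 1.47 in WT and 1.53 to 1.65 in GRKO Paneth cells. On that measure the genotypes did not overlap in Paneth cells, which they did with all members, and no test of it was made. The ratio is a description of these libraries, and the lists were chosen with earlier results of these data known.

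**Figure D5:**
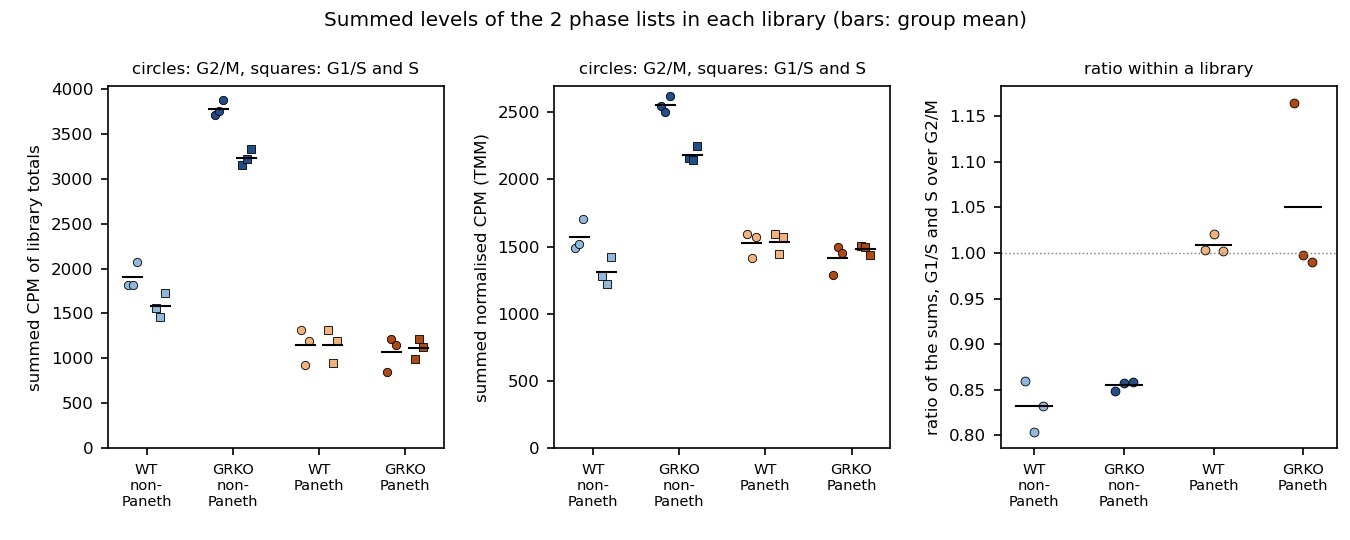
Summed levels of the G2/M list (circles) and the G1/S and S list (squares) in each library, in CPM of library totals (left) and normalised CPM (centre), and the ratio of the sums (right), with bars for the mean of 3 libraries. GRKO non-Paneth cells are highest in both sums, and Paneth cells are below WT non-Paneth cells in CPM. In normalised CPM the G2/M sums of Paneth cells overlap those of WT non-Paneth cells. The G1/S and S sums lie above them, at 1440 to 1596 against 1222 to 1420. The ratio is at least 0.99 in all Paneth and at most 0.86 in all non-Paneth libraries.

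Other genes of the cell cycle were taken from lists of 20 genes for G1 phase, 50 for mitosis and 50 for replication and repair, none of them members, and all 120 were tested. In GRKO against WT non-Paneth cells, 96 were called higher and 2 lower, by list 12 and 2 of the G1 genes, 44 and 0 of the mitosis genes and 40 and 0 of the replication genes. Of all genes tested, 17.5% were called higher and 19.8% lower. The highest were Cdkn1c, an inhibitor of CDKs, at 1.26 on the log2 scale (adjusted p = 0.00361), Mybl2, a transcription factor of the G2/M wave, at 1.05 (adjusted p = 0.000321), and the exonuclease gene Exo1 at 1.01 (adjusted p = 7.82e-05). The lowest call that was still a rise was Pola2, a subunit of polymerase alpha primase, at 0.34 (adjusted p = 0.0473). It was lost with DESeq2, RLE factors, TMM without Lyz1 and the Defa genes or no filter (adjusted p from 0.0645 to 0.11), without any of the GRKO non-Paneth libraries, without WT non-Paneth replicate 2 or 3 and without both WT libraries of replicate 2 (0.163 to 0.305).

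The 2 genes called lower in GRKO non-Paneth cells, Cdkn1a and Rb1, both restrain entry into S phase. Other genes for CDK inhibitors did not fall with them. Cdkn1c and Cdkn2c rose by 1.26 and 0.89 (adjusted p = 0.00361 and 0.000496), and Cdkn1b and Cdkn2d were not called. Cdkn1a, which encodes the CDK inhibitor p21, was at 106, 121 and 125 normalised CPM in WT and at 39.7, 48.6 and 44.6 in GRKO non-Paneth cells, and fell by 1.40 on the log2 scale (adjusted p = 3.44e-05). Rb1, the retinoblastoma gene that holds E2F in check, was at 37.7, 44.3 and 44.1 against 30.3, 31.1 and 30.2, and fell by 0.46 (adjusted p = 0.0175), though with library totals alone it was not called (-0.17, adjusted p = 0.405), nor without both WT libraries of replicate 2 (-0.43, adjusted p = 0.0699). In Paneth cells both went the other way. Cdkn1a was at 21.8, 32.9 and 29.0 in WT Paneth and at 50.4, 62.0 and 39.9 in GRKO Paneth cells (0.87, adjusted p = 0.0411). Rb1 was at 13.2, 17.8 and 18.5 against 21.0, 25.2 and 28.0 (0.59, adjusted p = 0.0483). For both, the difference between the fractions passed the test, at 2.27 (adjusted p = 7.77e-05) and 1.06 (adjusted p = 0.00342). The rises in Paneth cells were lost without GRKO Paneth replicate 2 (adjusted p = 0.224 for both genes) and without WT Paneth replicate 1 (adjusted p = 0.142 and 0.158), and for Rb1 also without GRKO Paneth replicate 3 (0.116) or WT Paneth replicate 2 (0.0582). The Rb1 rise was lost as well with TMM without Lyz1 and the Defa genes (0.0528). Both were lost by library totals (0.059 and 0.0695), in a fit of the Paneth libraries alone (0.117 and 0.159) and without both WT libraries of replicate 2 (0.0712 and 0.0842).

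In Paneth cells, 3 of the 120 genes were called higher in GRKO (Cdkn1a, Rb1 and E2f2, the last at 0.60, adjusted p = 0.0448) and 9 lower. Of all genes tested, 1.7% were called higher and 1.52% lower. The lowest named were Rpa3, of the complex that coats single-stranded DNA, at -0.86 (adjusted p = 0.0448), Gmnn, the inhibitor of origin relicensing, at -0.68 (adjusted p = 0.0481), and the thymidine kinase gene Tk1 at -0.64 (adjusted p = 0.044). The calls of E2f2, Rpa3, Gmnn and Tk1 were each lost by library totals, in a fit of the Paneth libraries alone, without GRKO Paneth replicate 2 or 3, without WT Paneth replicate 1 or 2 and without both WT libraries of replicate 2, with adjusted p from 0.0529 to 0.243. The difference between the fractions was called lower for 87 and higher for 2, which are Cdkn1a and Rb1. Of all genes tested, 7.28% were called lower and 11.5% higher. Cenpm and Cenpk, of the inner kinetochore, and Spc25, of the outer kinetochore, had differences of -1.35, -1.31 and -1.09, and Tfdp1, the partner of E2F, of -0.54. The Cenpk call was lost with any of 8 libraries left out, which are replicates 1 and 2 of GRKO Paneth, 1 and 3 of WT Paneth, 2 and 3 of GRKO non-Paneth and 1 and 2 of WT non-Paneth cells (adjusted p from 0.0513 to 0.0995). The Tfdp1 call was lost without WT Paneth replicate 3, GRKO non-Paneth replicate 2 or 3, WT non-Paneth replicate 1 or 2 or both WT libraries of replicate 2 and with no filter (0.0537 to 0.0869).

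Between the fractions, 26 of the 120 were called higher and 7 lower in WT Paneth cells, where 24% and 26.7% of all genes were, on the scale with composition removed. Of these, 18 and 1 belong to the replication list and 4 and 2 to the mitosis list. Rfc1, the large subunit of the clamp loader, was at 39.8, 42.8 and 42.6 normalised CPM in WT non-Paneth and at 95.7, 124 and 124 in WT Paneth cells, 1.46 on the log2 scale (adjusted p = 1.51e-07), and Cdkn1c and Cenpm followed at 0.81 and 0.72. By library totals the last 2 were not called, at 0.10 (adjusted p = 0.781) and 0.03 (adjusted p = 0.898), and the Cdkn1c call was lost also without WT Paneth replicate 2 or 3, without WT non-Paneth replicate 3, without both WT libraries of replicate 2, in a fit of the WT libraries alone and with no filter (adjusted p from 0.0571 to 0.135). Cdkn1a, Rb1 and E2f3, an activating E2F, were lowest in WT Paneth cells at -2.07, -1.36 and -1.17. In GRKO mice 1 was higher and 93 lower, where 18% of all genes tested were called higher and 21.2% lower. The gene that was higher is again Rfc1 (1.20, adjusted p = 2.2e-06), which by library totals was not called (0.23, adjusted p = 0.144). E2f2, E2f7 and Sgo1, a guardian of sister chromatid cohesion, were at -1.04, -1.01 and -1.01, and E2f4, a repressing E2F, was at -0.39. The E2f4 call was lost without any of the 3 GRKO non-Paneth libraries (adjusted p from 0.0749 to 0.184) and in a fit of the GRKO libraries alone (0.0511).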

How the data were processed

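Bulk RNA-seq was measured in 12 libraries, 3 for each of 4 groups, from FACS-sorted crypt cells. Per the study's methods and the labels, the authors trimmed reads with Trimmomatic 0.39, checked them with FastQC, aligned them (single-end, TruSeq stranded) to mm39 with STAR 2.7.10a and counted them per gene during alignment. The deposited values are raw counts, whole numbers without normalization, and 54749 of 55414 rows (98.8%) were named through GENCODE vM39, whose release may differ from the authors'. The strand counted was not found in the labels or the methods, and 22 members overlap an exon of a gene on the other strand. The methods and the labels name different RNA kits. Reads that map to several genes are not in such counts.

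Counts were scaled by TMM factors (0.656 to 0.826 in Paneth, 1.20 to 1.50 in non-Paneth libraries), and normalised CPM are CPM divided by these factors. Groups were compared with edgeR 4.0.16 in R 4.3.3 (filterByExpr, glmQLFit with robust estimates, glmQLFTest), in 1 fit over 12 libraries with 1 mean per group, and p-values were adjusted by Benjamini and Hochberg over 13057 genes, at 5%. The procedure was tested on simulated data. The alternatives were DESeq2 1.42.0, RLE factors, library totals, TMM without Lyz1 and the Defa genes, no filter on low counts, only the groups compared, a replicate block and each library left out. A fit without both WT libraries of replicate 2 was added after Xist had been seen. Counts of 2 libraries of a group differed by more than sampling noise, with a chi-square per degree of freedom of 12.3 to 47.1, and no library was counted as a repeat.

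After removal of group means, the fractions of WT mice with the same number correlated at 0.38, 0.24 and 0.28, all above the limit of 0.1, and the numbers were taken to pair them. The main fit did not use these pairs, which entered only in the replicate block. In GRKO mice the values were -0.04, 0.26 and 0.48, and the numbers were not taken as pairs. Between the genotypes, where the same number cannot mean the same mouse, they were -0.10, 0.17 and -0.10 in non-Paneth cells. In Paneth cells they were 0.11, 0.16 and -0.10. Some of these passed the limit too, so that the limit alone does not show pairing. The labels name no batch of sequencing, and one that followed the groups cannot be told apart from them.

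The members and lists were chosen with earlier results of these data known. Values in every library are given for Mki67 and Pcna, for the member of highest level per kilobase in each role list and for the 3 members with the largest change in each direction in a comparison, and for a member whose call goes against the direction of most, and of the other cell cycle genes the 3 highest and lowest called. E2f1, Cdkn3, Cenpa, Ccne2 and further members are named as exceptions or examples after their values were seen. Some genes that the lists hold are not reported here.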

Additional observations from a re-analysis of the deposited data

Results flagged for a closer look

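The effect of the genotype differed between Paneth and non-Paneth cells, by the interaction term of the edgeR fit, for 39 members, all with a lower log2 fold change in Paneth cells. Among the members given with values, the difference of the log2 fold changes was -1.18 for Neil3, -1.08 for Ube2c, -1.02 for Aurkb, -0.92 for Top2a, -0.82 for Mcm6, -0.79 for Uhrf1, -0.76 for Pcna, -0.73 for Cdc20 and -0.70 for Plk1. Neil3 is unlike the others in that its level in non-Paneth cells did not pass the test between genotypes, whereas each of the other 8 was called higher there and was not called in Paneth cells.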

How the results depend on the processing

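The rise of the members in GRKO non-Paneth cells, their lower level in GRKO Paneth than in GRKO non-Paneth cells and the interaction kept their direction and stayed within 1.5 times of their counts under all alternatives run. Their medians moved with the scale, by library totals to 1.01 in GRKO against WT non-Paneth cells, -1.74 in GRKO Paneth against non-Paneth cells and -1.07 for the interaction, and the second of these was also -0.69 with TMM without Lyz1 and the Defa genes, -0.83 with no filter on low counts, -0.67 in a fit of the groups compared only and between -0.76 and -0.62 with 1 library left out. The comparison of the WT fractions and that of the genotypes in Paneth cells depended on processing. In the former, the 9 higher members became 0 by library totals, 0 with no filter, 3 with only the groups compared and 5 with the replicate block, and between 2 and 14 with libraries left out (3 to 14 with 1 library). The 1 lower member became 41 by library totals and 0 to 3 with libraries left out, and the median of 0.08 became -0.61 by library totals and 0.052 to 0.23 with libraries left out. By library totals the sign turned for Mcm6 (-0.42), Pcna (-0.36), Top2a (-0.57), Uhrf1 (-0.59), Gins2 (-0.26), Prim1 (-0.27) and Tyms (-0.34), and the cause was not tested. The 3 members lower in GRKO Paneth cells became 8 with DESeq2, 0 by library totals, 5 with TMM without Lyz1 and the Defa genes, 5 with no filter, 0 with only the groups compared, and 0 to 7 with libraries left out, and the cause was not tested. The replicate block gave 4 there, 43 in non-Paneth cells, 47 in GRKO mice and 41 for the interaction, and moved no other count by over 1.5 times. In the genotype comparisons and in GRKO mice the libraries share only a number.

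Of 82 pairs of a named gene and a comparison, 33 changed their side of the threshold or their sign in at least 1 alternative. Precision is limited by 3 libraries in a group, Xist was high in the WT libraries of replicate 2 only, and how the non-Paneth cells were gated was not found.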
